A study of Mus musculus with 20 samples.

Results

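The G1 cyclins, CDKs and CDK inhibitors are the 10 genes that build or restrain the kinase complexes of the G1 phase, and they were taken by name from the table of log2 normalized counts. They are Ccnd1, Ccnd2, Ccnd3, Cdk4, Cdk6, Ccne1, Ccne2, Cdkn1a, Cdkn1b and Cdkn1c, 10 of the 48795 genes listed. All 10 passed the filter on low values, a mean of at least 10 normalized counts. The rule that picked them named genes and used no threshold on a value, but earlier results of these data were known when it was written.

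The data are mRNA sequencing libraries of 20 whole hearts, taken from mouse embryos at E13.5. The hearts were 10 WT, 5 Dp1Tyb and 5 labelled Dp1TybDyrk1a+/+/-. Dp1Tyb mice carry a tandem duplication of the chromosome 16 stretch from Lipi to Zbtb21, and so 3 copies of each gene in it, Dyrk1a included. Dp1TybDyrk1a+/+/- embryos carry this duplication together with the null allele Dyrk1atm1Mla, which leaves them with 2 functional copies of Dyrk1a and 3 copies of the other duplicated genes. That line descends from 1 recombinant pup that carried both alleles on the same chromosome. Both mutations are present in every cell of the embryo from the start, no agent was given, and the mice were kept on C57BL/6J. Per the study's methods mutants and controls were littermates and the Dp1TybDyrk1a+/+/- mice were bred apart from Dp1Tyb. The labels do not say which WT hearts belonged to which mutant's litters, so all 10 WT hearts served in both comparisons with WT. Between the mutant groups, genotype cannot be told apart from litter and breeding line. None of the 10 genes lies on chromosome 16.

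D-type cyclins bind CDK4 and CDK6 and direct them to phosphorylate RB1, which releases E2F factors and lets the genes of DNA replication be transcribed. E-type cyclins bind CDK2 and carry the cell over the G1 to S boundary, while the Cip/Kip inhibitors p21 (Cdkn1a), p27 (Cdkn1b) and p57 (Cdkn1c) bind cyclin-CDK complexes and hold most of them inactive. DYRK1A can phosphorylate D-type cyclins and p27, which changes how long these proteins last, so the RNA measured here is only the first layer of their control. In the midgestation heart the cardiomyocytes still divide.

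Values below are log2 normalized counts, and a gene was called when its Benjamini-Hochberg adjusted P-value from limma, taken over all 15304 genes tested, was under 0.05. The embryos' sex, read from Xist and Y-linked genes, was unequal between genotypes, with 7 males and 3 females in WT, 1 male and 4 females in Dp1Tyb and 4 males and 1 female in Dp1TybDyrk1a+/+/-. A pair of hearts, WT replicate 6 and Dp1TybDyrk1a+/+/- replicate 2, stood apart from the rest, with a root mean square deviation from their genotype's means of 0.134 and 0.186 against 0.0527 to 0.0909 in the other 18. Lanes 3, 6 and 7 each held hearts of all 3 genotypes. The 14 cardiomyocyte markers were abundant in every heart, with a summed level of 496330 to 656390 normalized counts in WT, and the 6 hepatocyte markers summed to at most 54.1 in any heart. Dyrk1a rose in Dp1Tyb by 0.32 (SE 0.027, adjusted P-value 6.22e-08) over WT, and in the hearts labelled Dp1TybDyrk1a+/+/- it also rose, by 0.39 (SE 0.027, adjusted P-value 2.18e-09). The mutant groups differed by -0.073 (Dp1Tyb minus Dp1TybDyrk1a+/+/-, adjusted P-value 0.209). The table holds 1 value per gene and does not separate RNA of the null allele, so it does not check that label. The study itself reported RNA sequencing that found a deletion of exons in 1 Dyrk1a allele of this line. It also reported more DYRK1A protein in Dp1Tyb than in Dp1TybDyrk1a+/+/- hearts.

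Of the 10 genes only Cdkn1b, which encodes p27, passed the test in any comparison. It was lower in Dp1Tyb hearts than in WT hearts by 10.3%, and lower than in Dp1TybDyrk1a+/+/- hearts by 10.6%, where the fold changes were 0.897 and 0.894. Between Dp1TybDyrk1a+/+/- and WT hearts its difference did not pass the test. The D-type cyclins, CDK4, CDK6 and the E-type cyclins did not pass the test in any of the 3 comparisons, and the other Cip/Kip genes, Cdkn1a and Cdkn1c, had values above WT in both mutant groups that also missed it. An unadjusted P-value under 0.05 was reached by 4 of the 10 in Dp1Tyb versus WT (15.6% of all genes tested), by 3 in Dp1TybDyrk1a+/+/- versus WT (9.64% of all genes), where limma called 0 of the 10, and by 3 in Dp1Tyb versus Dp1TybDyrk1a+/+/- (18.5% of all genes). By comparison, 471 of the 15304 genes tested (3.08%) were called in either direction in Dp1Tyb versus WT, 109 (0.712%) in Dp1TybDyrk1a+/+/- versus WT and 178 (1.16%) in Dp1Tyb versus Dp1TybDyrk1a+/+/-. With 1 gene of 10 called, the count of members is too small to be read against these shares.

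**Figure D1:**
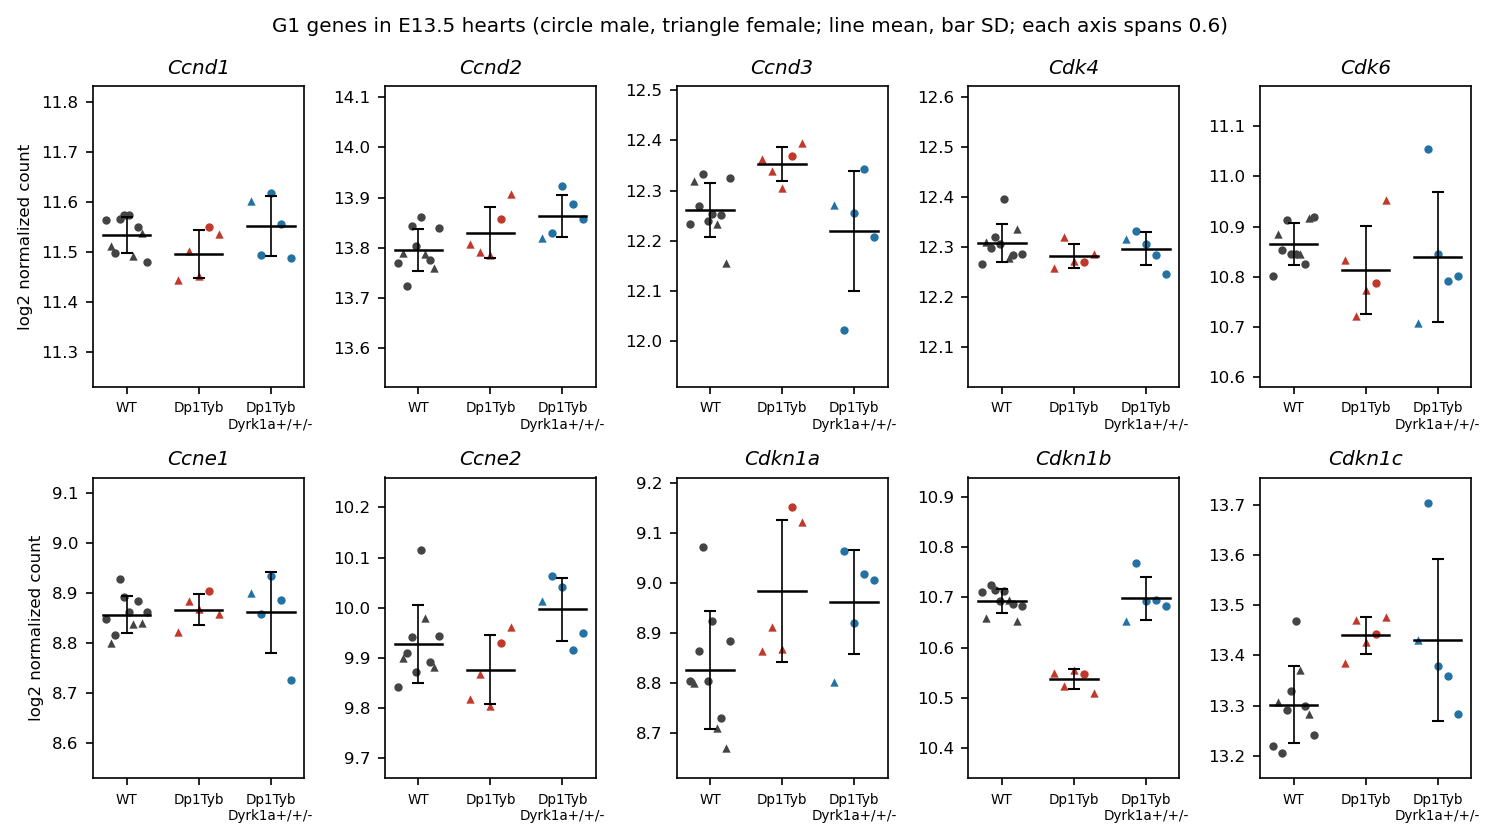
Log2 normalized counts of the 10 genes in each heart, by genotype (circles, male embryos and triangles, female embryos; lines and bars, mean and SD of 10 WT, 5 Dp1Tyb and 5 Dp1TybDyrk1a+/+/- hearts; every vertical axis spans 0.6). The 5 Dp1Tyb hearts lie below every other heart for Cdkn1b, while for each of the other 9 genes the groups overlap.

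Cdkn1b lies at chr6:134920401-134925525 of GRCm38.p6. In the 10 WT hearts its level ran from 10.65 through a median of 10.69 to 10.72. The 5 Dp1Tyb hearts were at 10.55, 10.52, 10.56, 10.55 and 10.51. The 5 Dp1TybDyrk1a+/+/- hearts were at 10.65, 10.77, 10.69, 10.69 and 10.68. All 5 Dp1Tyb hearts were thus below all 15 others, and the WT and Dp1TybDyrk1a+/+/- hearts overlapped. Against WT the log2 fold change was -0.16 (SE 0.019, 95% interval -0.20 to -0.12, adjusted P-value 2.36e-05), and the RNA fell by 10.3%. This was the gene with rank 52 by P-value of the 15304 tested, 194 of which (1.27%) were called lower and 402 of which (2.63%) had values that did not overlap between the genotypes, in either direction. Against Dp1TybDyrk1a+/+/- the log2 fold change was -0.16 (SE 0.022, 95% interval -0.21 to -0.11, adjusted P-value 0.00173), which ranked 4 by P-value. In that comparison 113 genes (0.738%) were called lower and 865 (5.65%) had hearts that did not overlap. Between Dp1TybDyrk1a+/+/- and WT the difference was 0.0052, with a 95% interval of -0.035 to 0.046. The 2 comparisons that called Cdkn1b share the Dp1Tyb hearts, so they are not independent of each other.

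Every Dp1Tyb heart was below every other heart for Cdkn1b, so the sign of its difference within any lane or sex was fixed beforehand. The values within lanes and sexes therefore give only the size of the difference. Within lanes 3, 6 and 7 the Dp1Tyb hearts were lower than WT, with differences of -0.16, -0.16 and -0.13 in that order, the last resting on 1 Dp1Tyb heart. Among female embryos the difference was -0.13 with 4 Dp1Tyb and 3 WT hearts, and among males it was -0.16 with 1 Dp1Tyb and 7 WT hearts. Between Dp1Tyb and Dp1TybDyrk1a+/+/- the differences were -0.14, -0.13 and -0.17 in lanes 3, 6 and 7, -0.12 among females and -0.16 among males, each resting on 1 heart of 1 genotype. The call against Dp1TybDyrk1a+/+/- was lost when lane and sex were both covariates, with -0.14 and an adjusted P-value of 0.0770, and when only those 10 hearts were fitted, with -0.16 and 0.0963. Cdkn1b was also one of the steadiest genes among hearts of 1 genotype, with a residual SD of 0.029 where the median of the 500 genes nearest in level was 0.061, and only 2.4% of these had a smaller one. The 3 genes whose deviations from the genotype means followed it most closely over the 20 hearts were Cldn34c1 (Pearson's r = 0.84), AW554918 (r = 0.84) and Nmrk1 (r = 0.80), as a description of hearts that share their normalization.

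Whole hearts mix cell types, and fewer cells of a type cannot be told apart from less RNA per cell. In Dp1Tyb versus WT, 12 of 12 fibroblast and cushion mesenchyme markers had log2 fold changes above 0, with a median of 0.085. Limma called 0 of them, and 3 had an unadjusted P-value under 0.05, as 15.6% of all genes did. Their summed level was 150720 to 170560 normalized counts in Dp1Tyb and 124880 to 167580 in WT, and none of the 12 was at 0. Of the 14 cardiomyocyte markers 6 were above 0 and 8 below, with a median of -0.037, 0 calls and 2 unadjusted P-values under 0.05. Of the 12 endocardial and endothelial markers 9 were above 0 and 3 below, and 2, Plvap at 0.17 and Vwf at 0.47, were called higher. Over all genes 3.08% were called in either direction. In Dp1TybDyrk1a+/+/- versus WT 11 of these 12 were above 0 and 1 below, and 1 was called higher, where 0.712% of all genes were called. The part of these values in the Cdkn1b result was not tested.

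**Figure D2:**
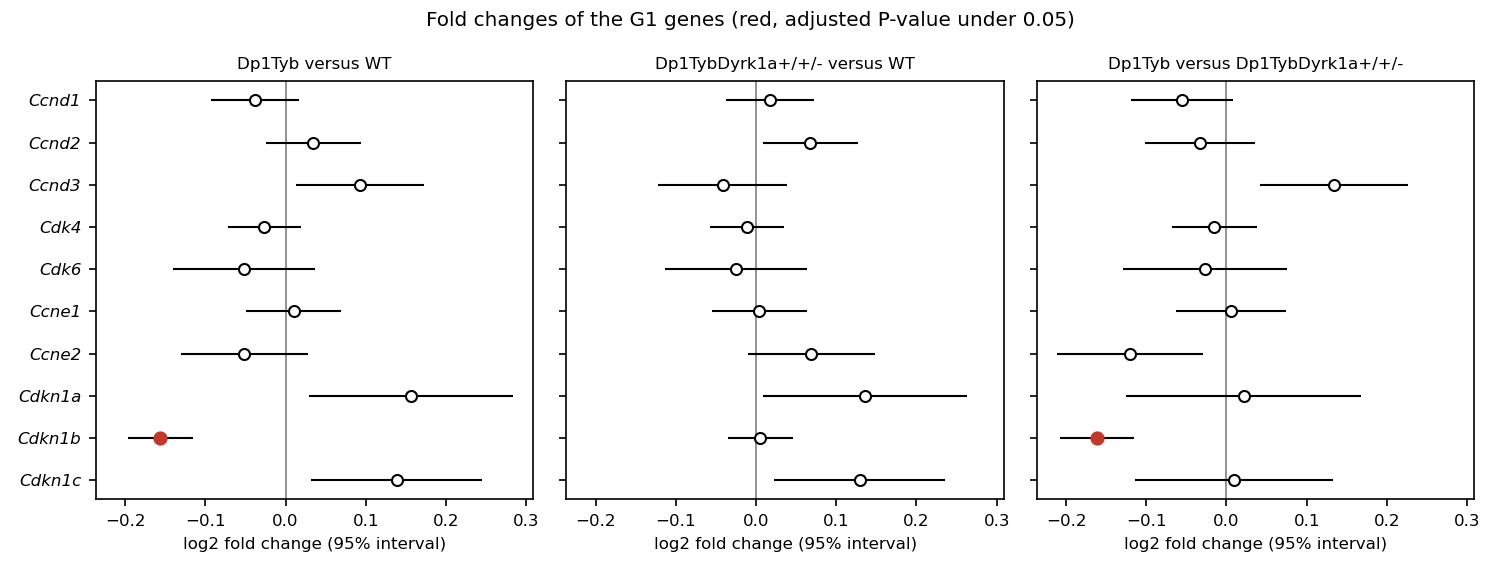
Log2 fold changes of the 10 genes with 95% intervals from limma in the 3 comparisons (red points, adjusted P-value under 0.05; open points, not called). Cdkn1b is called in both comparisons of Dp1Tyb at about -0.16, and its interval in Dp1TybDyrk1a+/+/- versus WT spans 0.

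Cdkn1c, the imprinted gene of p57, was by far the most abundant of the 10 per length. It lies at chr7:143458339-143461059. Its WT hearts ran from 13.21 through a median of 13.30 to 13.47. The Dp1Tyb hearts were at 13.39, 13.47, 13.43, 13.44 and 13.48, and the Dp1TybDyrk1a+/+/- hearts were at 13.43, 13.70, 13.38, 13.36 and 13.28. Every Dp1Tyb heart was above all WT hearts but replicate 6, the WT heart that stood apart, and Dp1TybDyrk1a+/+/- replicate 2 was the highest of all. The log2 fold change was 0.14 in Dp1Tyb versus WT (SE 0.051, 95% interval 0.032 to 0.25, adjusted P-value 0.171) and 0.13 in Dp1TybDyrk1a+/+/- versus WT (adjusted P-value 0.408). The second value was 0.061 without Dp1TybDyrk1a+/+/- replicate 2, and it was 0.12, -0.024 and 0.21 within lanes 3, 6 and 7. Without both hearts that stood apart, a choice made after the data were seen, the value in Dp1Tyb versus WT was 0.16 (adjusted P-value 0.00164). Without Dp1TybDyrk1a+/+/- replicate 2 alone it was 0.14 with 0.0224. That heart is in neither group compared, so leaving it out kept the value and changed the shared estimate of spread. The value was past the threshold too when each heart was weighted by its spread, with 0.15 and 0.00262. With only WT and Dp1Tyb hearts fitted it was also past it, with 0.14 and 0.0332. With sex as a covariate it was 0.13 and the adjusted P-value 0.375. None of its 11 tested imprinted neighbours on chromosome 7 was called in any of the 3 comparisons. Over all genes 3.08% were called in Dp1Tyb versus WT, 0.712% in Dp1TybDyrk1a+/+/- versus WT and 1.16% between the mutant groups. At such shares 0 calls among 11 genes carry little information. Unadjusted P-values under 0.05 were reached by 2 of them in Dp1Tyb versus WT (15.6% of all genes). Between the mutant groups 1 reached it (18.5% of all genes), and 0 in the other comparison (9.64%). Their log2 fold changes in Dp1Tyb versus WT ran from -0.11 to 0.12, with a median of 0.0090.

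Cdkn1a, the p53-responsive gene of p21, lies at chr17:29090979-29100722 and varied most between hearts of 1 genotype. WT hearts ran from 8.67 through a median of 8.80 to 9.07. Dp1Tyb hearts were at 8.86, 8.91, 8.87, 9.15 and 9.12, and Dp1TybDyrk1a+/+/- hearts were at 8.80, 9.06, 8.92, 9.02 and 9.005. The groups overlapped, and the residual SD of 0.12 was larger than that of 92.8% of the 500 genes nearest in level. The log2 fold change over WT was 0.16 in Dp1Tyb (SE 0.061, 95% interval 0.030 to 0.28, adjusted P-value 0.198) and 0.14 in Dp1TybDyrk1a+/+/- (SE 0.061, adjusted P-value 0.483). Neither passed the test. Split by sex, the 4 female Dp1Tyb hearts lay between 8.86 and 9.12 and the 3 female WT hearts between 8.67 and 8.80. The 1 male Dp1Tyb heart, at 9.15, was above the 7 male WT hearts, which lay between 8.73 and 9.07. The 4 male Dp1TybDyrk1a+/+/- hearts, between 8.92 and 9.06, lay within the range of male WT hearts. With so few hearts per sex such a separation carries little weight, and its share over all genes was not computed. With sex as a covariate the Dp1Tyb value was 0.24 (SE 0.054, adjusted P-value 0.0231), and with sex and lane it was 0.32 (SE 0.047, adjusted P-value 0.000909), while with lane alone it was 0.16 (adjusted P-value 0.222). Of 20 p53 target genes, cyclin G1 (Ccng1) rose by 0.17 (SE 0.042, adjusted P-value 0.0299) in Dp1Tyb and Pmaip1, a BH3-only gene, fell by 0.065 (adjusted P-value 0.0410). These were the only calls of the list in Dp1Tyb versus WT, where 3.08% of all genes were called. An unadjusted P-value under 0.05 was reached by 6 of the 20, against 15.6% of all genes. In Dp1TybDyrk1a+/+/- versus WT Ccng1 differed by 0.15 (adjusted P-value 0.181). The list's median was -0.0033 against -0.00187 over all genes tested, and Trp53 itself differed by -0.0035 (SE 0.029).

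By abundance p57 RNA made up most of the Cip/Kip total. With merged exon lengths Cdkn1c contributed 91.4% ± 0.46 (SD, n = 10) of the summed Cip/Kip counts per kilobase in WT, 92.6% ± 0.20 (n = 5) in Dp1Tyb and 91.9% ± 0.67 (n = 5) in Dp1TybDyrk1a+/+/-. The share of Cdkn1b was 7.10% ± 0.36 in WT, 5.87% ± 0.21 in Dp1Tyb and 6.57% ± 0.53 in Dp1TybDyrk1a+/+/-. The Dp1Tyb shares, from 5.62% to 6.13%, were all below the WT shares, from 6.45% to 7.69%, and overlapped those of Dp1TybDyrk1a+/+/-, from 5.75% to 7.12%. The share of Cdkn1b falls also when Cdkn1c rises, so it is not a second result beside the fold change. Its mean was below WT in Dp1TybDyrk1a+/+/- too, where the log2 fold change of Cdkn1b was 0.0052. Cdkn1a made up 1.47% ± 0.14 in WT. With canonical transcript lengths the WT shares were 89.7% for Cdkn1c, 6.24% for Cdkn1b and 4.06% for Cdkn1a, and the share of Cdkn1b in Dp1Tyb was 5.14%.

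The D-type cyclins were each measured far above the filter. Ccnd2, the most abundant of them by counts, lies at chr6:127125162-127152188. WT hearts ran from 13.72 through a median of 13.79 to 13.86, Dp1Tyb hearts were at 13.81, 13.79, 13.79, 13.86 and 13.91, and Dp1TybDyrk1a+/+/- hearts were at 13.82, 13.83, 13.92, 13.89 and 13.86. All 3 genotypes overlapped. The log2 fold change was 0.035 in Dp1Tyb versus WT, with a 95% interval of -0.025 to 0.094, and -0.033 in Dp1Tyb versus Dp1TybDyrk1a+/+/-, with an interval of -0.10 to 0.035. In Dp1TybDyrk1a+/+/- versus WT it was 0.068 (SE 0.028, adjusted P-value 0.449).

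Ccnd1, at chr7:144929931-144939831, is the D-type cyclin best known as a target of growth factor signalling. WT hearts ran from 11.48 through a median of 11.54 to 11.57, Dp1Tyb hearts were at 11.44, 11.50, 11.45, 11.55 and 11.54, and Dp1TybDyrk1a+/+/- hearts were at 11.60, 11.49, 11.62, 11.56 and 11.49. The Dp1Tyb hearts included the 2 lowest values of the series but otherwise overlapped WT. Its log2 fold change was -0.038 against WT (95% interval -0.093 to 0.017) and -0.055 against Dp1TybDyrk1a+/+/- (95% interval -0.12 to 0.0082), with adjusted P-values of 0.545 and 0.336.

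Ccnd3, at chr17:47505051-47599689, had the highest values in Dp1Tyb. WT hearts ran from 12.16 through a median of 12.25 to 12.33, Dp1Tyb hearts were at 12.36, 12.34, 12.30, 12.37 and 12.39, and Dp1TybDyrk1a+/+/- hearts were at 12.27, 12.02, 12.25, 12.34 and 12.21. Of the 5 Dp1Tyb hearts 4 were above every WT heart, and the 1 at 12.30 lay within the WT range. The value of 12.02 belonged to the Dp1TybDyrk1a+/+/- heart that stood apart. Its log2 fold change was 0.093 against WT (SE 0.039, 95% interval 0.013 to 0.17, adjusted P-value 0.233) and 0.13 against Dp1TybDyrk1a+/+/- (SE 0.044, 95% interval 0.042 to 0.23, adjusted P-value 0.121). Without both hearts that stood apart the difference from WT was 0.092 with an adjusted P-value of 0.0463, and with weighted hearts it was 0.089 with 0.0305. It was past the threshold as well without Dp1TybDyrk1a+/+/- replicate 2 alone, with 0.093 and 0.047. That heart is in neither group compared, so leaving it out kept the value and changed the shared estimate of spread. The threshold was missed with sex as a covariate (0.098, adjusted P-value 0.376) and with lane and sex (0.12, adjusted P-value 0.332). With only WT and Dp1Tyb hearts fitted it was missed too, with 0.093 and 0.0558. Without Dp1TybDyrk1a+/+/- replicate 2 the difference from Dp1TybDyrk1a+/+/- was smaller, 0.085 with an adjusted P-value of 0.194.

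Summed per kilobase of merged exons, the D-type cyclins reached 2663 ± 60.6 normalized counts in WT (SD, n = 10), 2719 ± 83.2 in Dp1Tyb (n = 5) and 2730 ± 93.3 in Dp1TybDyrk1a+/+/- (n = 5). These sums differed by about the spread between hearts. The share of Ccnd2 in the sum was 56.7% ± 0.57, 56.9% ± 0.43 and 58.1% ± 1.16 in that order. With canonical transcript lengths the order of the shares changed, to 44.5% for Ccnd3, 41.1% for Ccnd2 and 14.3% for Ccnd1 in WT, and the WT sum was 5463. Among hearts of 1 genotype, the genes that followed Ccnd2 most closely over the 20 hearts were Eif5 (r = 0.87), Homer1 and Calcrl, those that followed Ccnd3 were Tmem65 (r = 0.93), Spsb4 and Atp5mc1, and those that followed Ccnd1 were Rdh11 (r = 0.76), B4galt4 and B3galt6.

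The kinases that the D-type cyclins activate did not pass the test in any comparison. Cdk4, at chr10:127063535-127067288, lay between 12.27 and 12.40 in WT, between 12.26 and 12.32 in Dp1Tyb and between 12.25 and 12.33 in Dp1TybDyrk1a+/+/-. The log2 fold change was -0.026 in Dp1Tyb versus WT, with a 95% interval of -0.072 to 0.019. Cdk6, the related kinase at chr5:3341004-3531008, lay between 10.80 and 10.92 in WT, between 10.72 and 10.95 in Dp1Tyb and between 10.71 and 11.05 in Dp1TybDyrk1a+/+/-, where the highest value was again replicate 2. Its log2 fold change was -0.052 in Dp1Tyb versus WT (95% interval -0.14 to 0.037). Cdk4 supplied 91.9% ± 0.24 of the summed counts per kilobase of both kinases in WT, 92.1% ± 0.50 in Dp1Tyb and 92.0% ± 0.61 in Dp1TybDyrk1a+/+/-.

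Of the E-type cyclins, Ccne1 at chr7:38097984-38107490 lay between 8.80 and 8.93 in WT, between 8.82 and 8.90 in Dp1Tyb and between 8.73 and 8.93 in Dp1TybDyrk1a+/+/-. Its log2 fold change was 0.0099 in Dp1Tyb versus WT, with a 95% interval of -0.049 to 0.069. Ccne2, at chr4:11190433-11204779, ran from 9.84 through a median of 9.90 to 10.12 in WT. Dp1Tyb hearts were at 9.82, 9.87, 9.80, 9.93 and 9.96, and Dp1TybDyrk1a+/+/- hearts were at 10.01, 10.06, 10.04, 9.92 and 9.95. The Dp1Tyb hearts overlapped both other genotypes, and 3 of the 5 Dp1TybDyrk1a+/+/- hearts were above all of them. The log2 fold change was -0.051 against WT (adjusted P-value 0.575) and -0.12 against Dp1TybDyrk1a+/+/- (SE 0.044, 95% interval -0.21 to -0.029, adjusted P-value 0.152). Cdk2, their partner kinase, differed by 0.0086 (SE 0.032) in Dp1Tyb versus WT.

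Per kilobase of merged exons the WT levels spanned from Cdkn1c at 4692 ± 257 normalized counts (SD, n = 10) to Cdkn1a at 75.3 ± 6.29. Below Cdkn1c came Ccnd2 at 1512 ± 44.5 and Cdk4 at 1475 ± 38.4, whose ranges over hearts overlapped. They were followed by Ccnd1 at 621 ± 15.5, Ccnd3 at 531 ± 19.6, Cdkn1b at 364 ± 6.03 and Ccne2 at 173 ± 9.64, with no overlap between neighbours in this order. Cdk6 at 129 ± 3.70 and Ccne1 at 128 ± 3.34 could not be told apart. The order rests on the length chosen, because the table does not say which isoforms were counted. Per kilobase of the canonical transcript Ccnd3 was at 2434 ± 89.8 and overlapped both Cdk4 at 2438 ± 63.5 and Ccnd2 at 2247 ± 66.1, and Cdkn1a was at 237 ± 19.8 and overlapped Ccne1 at 223 ± 5.83.

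**Figure D3:**
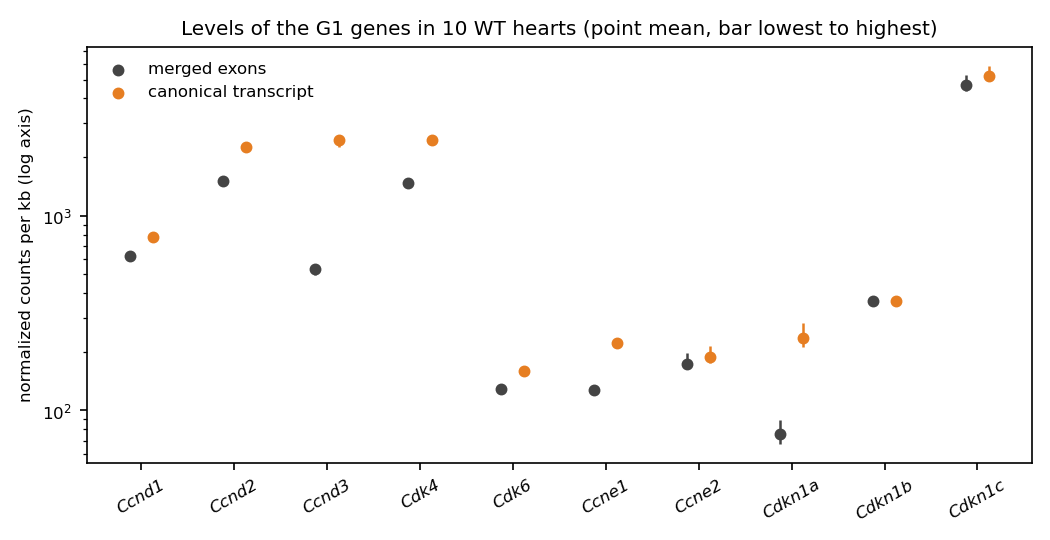
Normalized counts per kilobase of the 10 genes in 10 WT hearts on a log axis, by merged exon length (grey) and canonical transcript length (orange) (points, mean; bars, lowest to highest heart). Cdkn1c is highest with both lengths, and Ccnd3 and Cdkn1a depend most on the length used.

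Deviations from the genotype means were positively correlated for 36 of the 45 pairs of members over the 20 hearts, with a median r of 0.22, and 5 of the 9 negative pairs held Ccnd3. They were most alike for Ccnd1 and Ccne1 (r = 0.70), Cdk4 and Cdkn1c (r = 0.68) and Ccne2 and Cdkn1c (r = 0.65), and most opposed for Ccnd3 and Cdkn1c (r = -0.55). Without both hearts that stood apart, 33 of the 45 pairs were positive, none of the negative ones held Ccnd3, and r was 0.068 for Ccnd3 and Cdkn1c and 0.75 for Ccnd1 and Ccne1 over 18 hearts. These points share their library's depth and normalization.

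Some of these genes overlap other genes in GENCODE M39, and the strand used in counting is not given in the sources used here, so reads from the shared stretches cannot be assigned. Ccnd1 shared 2315 bases of identical transcript with LTO1, which lies on the opposite strand and had a mean of 310.9 normalized counts against 2958 for Ccnd1. Ccne2 shared 474 bases with Ints8, which had 998.9 against 978.2, and Cdk4 shared 646 bases with Tspan31, which had 1158 against 5040. Cdkn1b overlapped only Gm44238, at 0.3 normalized counts. Its mean over all hearts was 1615. Ccnd3 shared 369 bases with Bysl on the opposite strand, which had 694.2 normalized counts against 4960.5. Cdkn1c shared 422 bases with Gm44732, also on the opposite strand, which had 110.8 against 10609.5. The pseudogene Ccnd3-ps, 96.3% identical to Ccnd3 over 881 bases, was at 1.2.

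The wider pathway was described with 148 genes of 11 lists, of which 142 were tested. In Dp1Tyb versus WT 3 were called higher and 18 lower (14.8% of those tested, where 3.08% of all genes were called), with a median log2 fold change of -0.029 against -0.00187 over all genes. In Dp1Tyb versus Dp1TybDyrk1a+/+/- 0 were called higher and 13 lower (9.15% of those tested, where 1.16% of all genes were called), with a median of -0.036. In Dp1TybDyrk1a+/+/- versus WT only Dyrk1a and Chaf1b were called, both higher and both within the duplicated stretch.

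**Figure D4:**
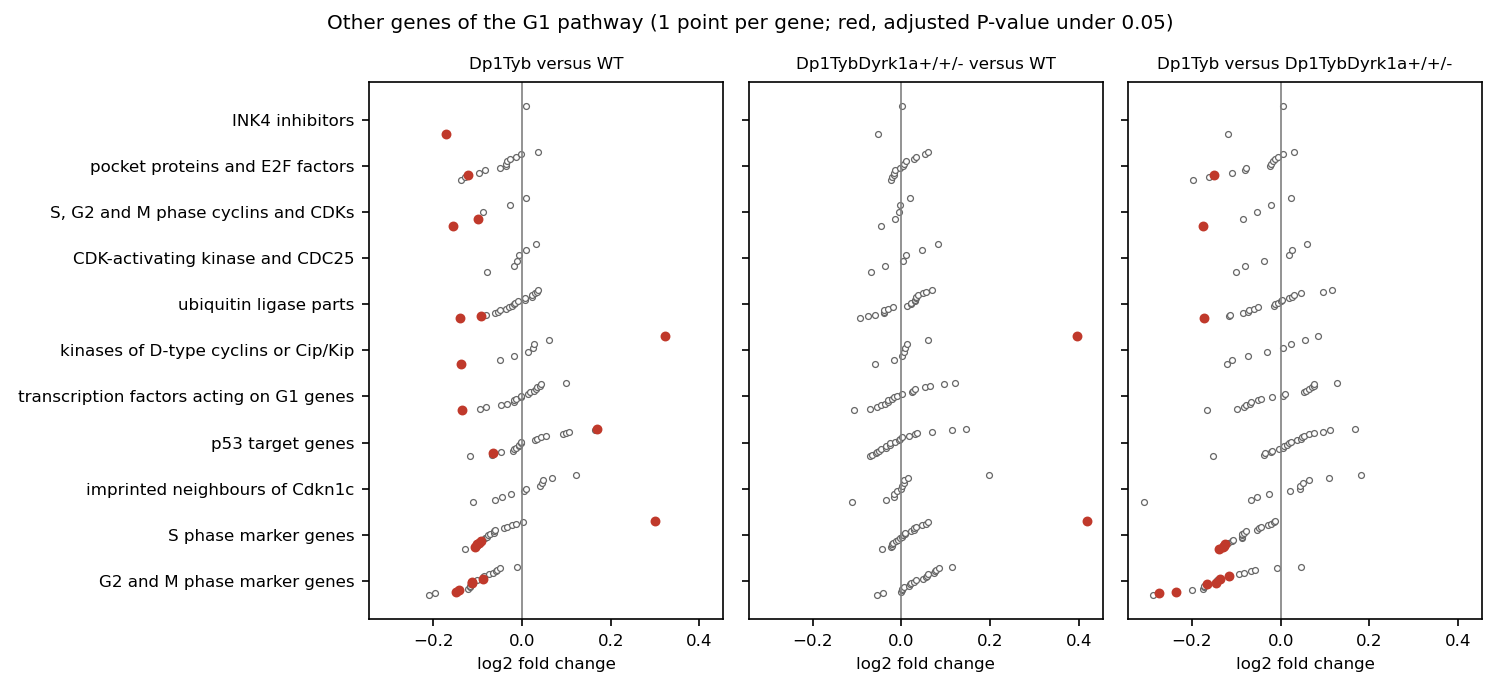
Log2 fold changes of the tested genes of the 11 pathway lists in the 3 comparisons, 1 point per gene (red, adjusted P-value under 0.05; open, not called). The S phase and the G2 and M phase markers lie mostly left of 0 in both comparisons of Dp1Tyb, and only Dyrk1a and Chaf1b are called in Dp1TybDyrk1a+/+/- versus WT.

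Among the regulators in the pathway lists, Cdkn2c, the INK4 inhibitor p18 that binds CDK4 and CDK6, fell by 0.17 in Dp1Tyb versus WT (SE 0.037, adjusted P-value 0.0121). Its difference from Dp1TybDyrk1a+/+/- was -0.12 (adjusted P-value 0.149). The counts of genes called lower that follow stand against 1.27% of all genes in Dp1Tyb versus WT and 0.738% in Dp1Tyb versus Dp1TybDyrk1a+/+/-, and in lists this short a single gene exceeds those shares. Of 13 pocket protein and E2F genes, 1 was called lower in each comparison of Dp1Tyb, and it was Rbl1, the gene of the RB1 relative p107. Rbl1 differed by -0.12 from WT (SE 0.017, adjusted P-value 0.000158) and by -0.15 from Dp1TybDyrk1a+/+/- (SE 0.020, adjusted P-value 0.00173), with no overlap between the hearts in either. Rb1 differed by -0.098 from WT (SE 0.036, adjusted P-value 0.158). Of the 8 kinases that phosphorylate D-type cyclins or Cip/Kip proteins, Dyrk1b, the nearest relative of Dyrk1a, fell by 0.14 in Dp1Tyb versus WT (SE 0.030, adjusted P-value 0.0125). Foxm1, a transcription factor of the late cell cycle, fell by 0.14 (SE 0.022, adjusted P-value 0.000960). Of 19 ubiquitin ligase genes that act on G1 proteins, 2 were called lower, Dtl, the receptor of a ligase that degrades p21, at -0.092 and Fbxo5, an inhibitor of the anaphase-promoting complex, at -0.14.

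Downstream, genes of S phase and mitosis had lower values in Dp1Tyb. Over all genes 1.27% were called lower in Dp1Tyb versus WT and 0.738% in Dp1Tyb versus Dp1TybDyrk1a+/+/-. Cyclin A2 (Ccna2) differed by -0.16 from WT (SE 0.031, adjusted P-value 0.00577) and by -0.18 from Dp1TybDyrk1a+/+/- (adjusted P-value 0.0231). Of 20 S phase markers 18 had values below 0 in Dp1Tyb versus WT, with a median of -0.075, and 4 were called lower, among them Pcna, the replication clamp, at -0.093 and Rrm1, a subunit of ribonucleotide reductase, at -0.11. The other two were the DNA polymerase alpha and primase genes Pola1 at -0.098 and Prim1 at -0.10. Chaf1b, called higher at 0.30, is present in 3 copies. Of 20 G2 and M phase markers all 20 were below 0, with a median of -0.11, and 5 were called lower, among them Top2a at -0.14 and the mitotic motor Kif11 at -0.15. The checkpoint kinases Bub1 at -0.11 and Ttk at -0.11 and the kinesin Kif23 completed these 5. In Dp1Tyb versus Dp1TybDyrk1a+/+/- 4 S phase and 6 G2 and M phase markers were called lower. Among the G2 and M phase markers, 3 of these were not called against WT, Cenpf at -0.27, Kif20b at -0.24 and Birc5, the gene of survivin, at -0.14. The sum of the G2 and M phase markers was 41316 to 44639 normalized counts in Dp1Tyb, below all WT hearts at 45536 to 50270 and all Dp1TybDyrk1a+/+/- hearts at 46008 to 55903. These lists and the comparisons were known in part when the lists were drawn up, and the counts were sensitive to sex, lane and the hearts fitted.

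Promoters are shown for Cdkn1b, the gene that carried the difference, and for 3 pathway genes that were called lower with it, so that their start regions can be compared. Each of these 3 holds a searched word, which not all genes called lower do. RefSeq windows of 300 bases, 250 before and 50 after the start site, were at hand for 6 of the 10 genes. They were searched on both strands for 4 E2F words, TTTCCCGC, TTTGGCGC, TTTCGCGC and TTTGCCGC, of which at least 1 occurred in 2.26% of all 32851 windows, and for the CHR word TTTGAA, which occurred in 17.9%. None of the 8 windows of Ccnd3, Cdk4, Cdk6, Ccne1, Cdkn1a and Cdkn1b held any of these words, which says only that these letters are not in these windows. Of 18 pathway genes called lower in either comparison of Dp1Tyb and having a window, 3 (16.7%) held an E2F word and 8 (44.4%) held TTTGAA, and of the 101 other tested pathway genes with a window 17 (16.8%) and 26 (25.7%) did. The 8 genes called lower with TTTGAA were Fbxo5 and genes of G2 and mitosis, while the 101 others came from lists of many kinds. No comparison was made within a list. These shares count genes with any window that holds a word, while those of all promoters count windows. Words are in capitals, as TTTGAA or an E2F word on the strand of the gene. The windows are chr6:134920151-134920450 (plus strand) for Cdkn1b, chr2:157204485-157204784 (minus strand) for Rbl1, chr9:70421505-70421804 (minus strand) for Ccnb2 and chr9:61946750-61947049 (minus strand) for Kif23, all on GRCm38.p6.
Cdkn1b: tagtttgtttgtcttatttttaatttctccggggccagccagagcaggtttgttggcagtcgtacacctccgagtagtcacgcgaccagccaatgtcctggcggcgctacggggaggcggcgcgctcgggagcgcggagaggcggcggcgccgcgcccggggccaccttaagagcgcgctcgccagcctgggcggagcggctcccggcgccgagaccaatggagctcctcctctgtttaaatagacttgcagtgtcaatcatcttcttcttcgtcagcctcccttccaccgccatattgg
Rbl1: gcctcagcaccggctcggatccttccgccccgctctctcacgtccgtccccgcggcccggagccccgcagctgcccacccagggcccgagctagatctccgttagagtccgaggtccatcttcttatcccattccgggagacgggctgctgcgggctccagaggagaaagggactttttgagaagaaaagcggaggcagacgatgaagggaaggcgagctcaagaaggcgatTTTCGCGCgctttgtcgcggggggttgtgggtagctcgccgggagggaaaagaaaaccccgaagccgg
Ccnb2: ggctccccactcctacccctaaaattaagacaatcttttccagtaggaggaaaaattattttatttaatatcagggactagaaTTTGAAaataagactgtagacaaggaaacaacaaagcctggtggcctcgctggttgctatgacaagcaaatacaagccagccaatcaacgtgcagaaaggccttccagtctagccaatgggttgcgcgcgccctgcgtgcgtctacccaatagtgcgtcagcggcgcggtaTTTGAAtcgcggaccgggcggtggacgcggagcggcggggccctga
Kif23: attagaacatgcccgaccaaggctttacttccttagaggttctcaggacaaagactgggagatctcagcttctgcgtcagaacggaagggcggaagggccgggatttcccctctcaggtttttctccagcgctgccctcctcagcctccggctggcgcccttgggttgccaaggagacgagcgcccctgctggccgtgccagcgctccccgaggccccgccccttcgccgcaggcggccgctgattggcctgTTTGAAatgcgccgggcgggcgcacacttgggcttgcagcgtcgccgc
The E2F word of Rbl1 begins 18 bases before the start site. The CHR word of Kif23 begins 2 bases after it, and the CHR words of Ccnb2 begin 167 bases before and 4 bases after it. Ccnb2, a mitotic cyclin, differed by -0.099 from WT in Dp1Tyb (SE 0.025, adjusted P-value 0.0324), and Kif23, a kinesin of late mitosis, by -0.088 (SE 0.023, adjusted P-value 0.0423).

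**Figure D5:**
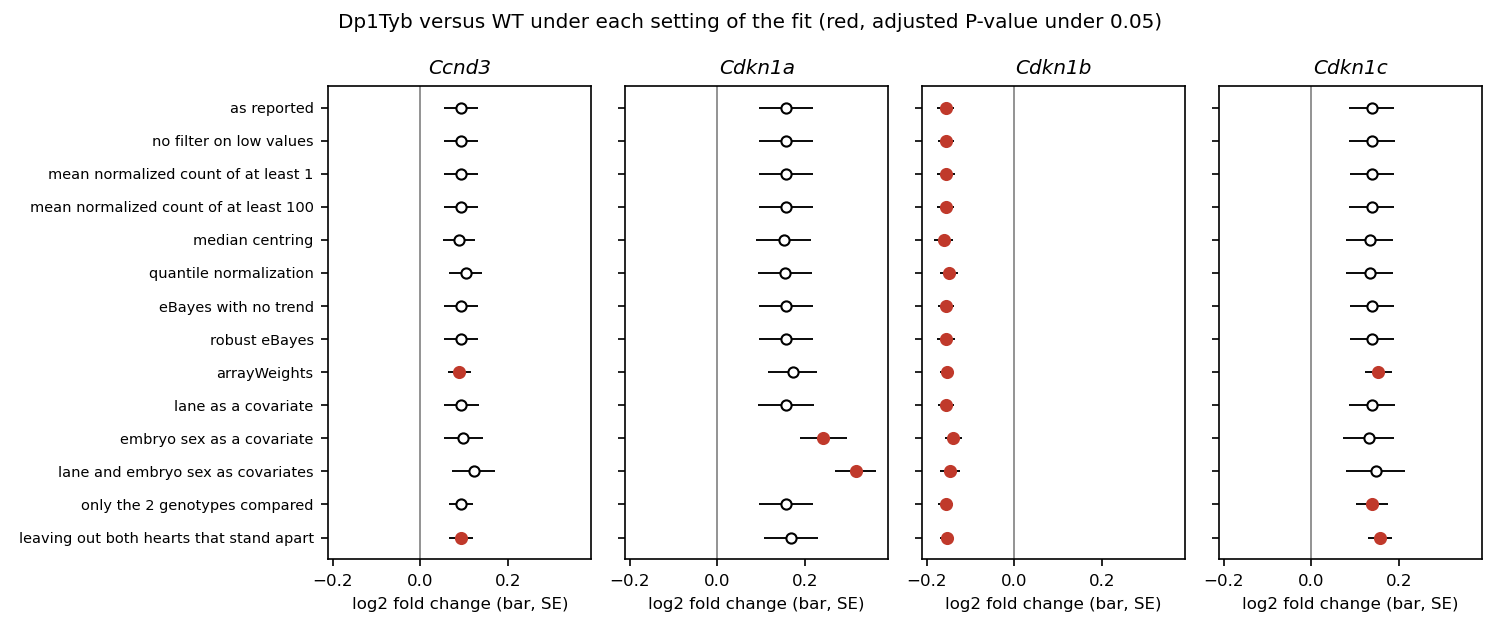
Log2 fold changes in Dp1Tyb versus WT of Ccnd3, Cdkn1a, Cdkn1b and Cdkn1c under 14 settings of the fit, the reported one at the top (bars, SE; red, adjusted P-value under 0.05; open, not called). Cdkn1b is called in all 14, while Ccnd3 is called in 2, Cdkn1a in 2 and Cdkn1c in 3, all 3 genes with values above 0 throughout.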

How the data were processed

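RNA of 20 whole hearts was sequenced as mRNA libraries. Per the submitters' processing notes, the authors used Trimmomatic 0.36, STAR 2.5.2a, RSEM 1.2.31, DESeq2 and DESeq with GRCm38. The authors deposited 1 table of log2 normalized counts, normalized over all 20 libraries. Values of weakly expressed genes lie near the gene's mean, as a regularized log2 transformation gives, so their fold changes are understated. The duplicated genes Dyrk1a and Chaf1b, well above the filter, rose by 0.32 and 0.30 in Dp1Tyb versus WT. Both rises are smaller than in proportion to copy number. Fold changes and percentages of other well expressed genes, Cdkn1b included, may thus be understated too, which was not tested. The transformation, its log base and the read depth are not given in the sources used here, base 2 was taken here, and no counting interval was possible. The number of hearts sets the precision. Columns of per-sample values given to no sample numbered 0.

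Genes with a mean of at least 10 normalized counts, 15304 of 48795, went into the linear models of limma (3.58.1, under R 4.3.3), with a mean for each genotype over all 20 hearts and a variance prior that follows expression level, and P-values were adjusted by Benjamini-Hochberg with a threshold of 0.05. The study's own test needs counts, so limma took its place. Normalized counts are 2 to the power of the deposited values. Gene names (44565 of 48795 identifiers matched) and exon lengths came from GENCODE M39 and coordinates and promoters from RefSeq on GRCm38.p6. In simulated data of 15304 genes for Dp1Tyb versus WT, 124 of 200 genes shifted by 0.15 and 189 of 200 shifted by 0.3 were called, 0 with the wrong sign. Of the genes not shifted, 4 and 8 were called in that order. The simulated spread was drawn independently for each gene and heart. It held neither correlation between genes nor hearts that stand apart, so these counts do not give the power in the real hearts. P-values weigh each difference between genotypes against the spread between these hearts, pooled over the genotypes.

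The 10 genes and the pathway and cell type lists were chosen with earlier results of these data known. The text names the 10 genes, pathway genes called in any comparison with Dyrk1a, Rb1, Cdk2 and Trp53, cell type markers where called, and for each D-type cyclin and each called member the 3 genes most correlated with it. A result for 1 pathway gene is not reported here. Alternatives were other filters and normalizations, limma settings, weights per heart, lane and sex as covariates, pairs of genotypes fitted alone and each heart left out in turn. Other steps used Python 3.11.15, numpy 2.4.6, pandas 2.3.3 and matplotlib 3.10.9.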

Additional observations from a re-analysis of the deposited data

Results flagged for a closer look

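Ccne2 in WT replicate 6 was at 10.12, far above the other 9 WT hearts, which lay between 9.84 and 9.98. The gap to the next heart was 0.495 of the whole range of the group. This was 1 of 30 combinations of a gene and a genotype examined, and chance flags about 1 in 20. WT replicate 6 was also 1 of the 2 hearts that stood apart over all genes, and without it the Ccne2 difference between Dp1Tyb and WT was -0.03.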

How the results depend on the processing

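Cdkn1b in Dp1Tyb versus WT was called in all 33 alternatives, with adjusted P-values from 1.37e-07 to 0.00159 and values from -0.149 to -0.161 when 1 heart was left out. In Dp1Tyb versus Dp1TybDyrk1a+/+/- it was called in 31 of 33. No member was called in Dp1TybDyrk1a+/+/- versus WT in any of the 33. In Dp1Tyb versus WT the count of members called, 1 as reported, was 3 with weighted hearts, 2 with sex, 2 with lane and sex, 2 with only both genotypes fitted and 3 without both hearts that stood apart, and it ran from 1 to 3 when 1 heart was left out (3 without Dp1TybDyrk1a+/+/- replicate 2). In Dp1Tyb versus Dp1TybDyrk1a+/+/- it was 0 with lane and sex and 0 with only both genotypes fitted, and 1 whichever heart was left out. The 21 pathway genes called in Dp1Tyb versus WT became 49 with weighted hearts, 11 with lane and sex, 38 with only both genotypes fitted and 43 without both hearts, and ran from 12 (without Dp1Tyb replicate 3) to 40 (without Dp1TybDyrk1a+/+/- replicate 2) with 1 heart left out. The 13 called in Dp1Tyb versus Dp1TybDyrk1a+/+/- became 6 with no filter, 21 with a filter of 100, 44 with weighted hearts, 2 with lane, 2 with sex, 0 with lane and sex, 0 with only both genotypes fitted and 31 without both hearts, and ran from 2 to 24 with 1 heart left out. Without Dp1Tyb replicates 1 to 5 in turn they were 5, 8, 2, 3 and 7, without Dp1TybDyrk1a+/+/- replicates 3 and 4 they were 4 and 5, and without WT replicate 6 they were 24. Over all genes the calls ran from 170 (lane and sex) to 1422 (weighted hearts) in Dp1Tyb versus WT, where 471 are reported. They ran from 88 (without Dp1TybDyrk1a+/+/- replicate 3) to 341 (weighted hearts) in Dp1TybDyrk1a+/+/- versus WT, where 109 are reported, and from 3 (only both genotypes fitted) to 1247 (weighted hearts) in Dp1Tyb versus Dp1TybDyrk1a+/+/-, where 178 are reported. The causes were not tested. No paired analysis was possible because the labels number no replicates and tie no WT heart to a mutant's litter (the replicate numbers used here only name samples).

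Values near 0 changed sign. In Dp1TybDyrk1a+/+/- versus WT, quantile normalization gave -0.0058 for Ccnd1 and -0.0059 for Cdkn1b, weighted hearts 0.0057 for Ccnd3 and -0.011 for Cdkn1b, lane -0.0050 for Ccne1 and -0.0012 for Cdkn1b, lane and sex -0.0042 and -0.00096 for the same 2 genes, and leaving out both hearts 0.0068 for Ccnd3 and -0.010 for Cdkn1b. In Dp1Tyb versus Dp1TybDyrk1a+/+/-, quantile normalization gave 0.023 for Ccnd2, 0.024 for Cdk4 and -5.98e-06 for Ccne1, median centring -0.0066 for Ccne1 and -0.0032 for Cdkn1c, weighted hearts 0.0040 for Cdk6, lane and sex 0.0083 for Ccnd2 and 0.021 for Cdk6, and leaving out both hearts 0.027 for Cdk6. With 1 heart left out, values ran in Dp1TybDyrk1a+/+/- versus WT Ccnd3 from -0.072 to 0.0078, Cdk4 from -0.020 to 0.0013, Cdk6 from -0.079 to 0.0081, Ccne1 from -0.014 to 0.038 and Cdkn1b from -0.012 to 0.017, and in Dp1Tyb versus Dp1TybDyrk1a+/+/- Cdk6 from -0.062 to 0.027, Ccne1 from -0.028 to 0.024, Cdkn1a from -0.021 to 0.051 and Cdkn1c from -0.028 to 0.078. None of these values was called.

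The read depth is unknown, which leaves the precision to the number of hearts. Members that missed the threshold are not shown to be alike between genotypes, since the 95% intervals of several reach differences as large as that of Cdkn1b.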
